A study of Mus musculus with 30 samples.

Results

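Collagen chain genes encode the polypeptides that assemble into the collagens of the extracellular matrix. They were taken as the probe sets that the platform annotation pairs with 1 symbol only, of the form Col, a number, the letter a and a number. This gave 82 of the 45037 probe sets on the array, and 42 of the 18193 genes that these name. Of the 42 genes, 34 were bright enough to be tested, among 13089 tested genes in all. RNA came from whole lungs of C57BL/6 mice, with 1 animal on each of 30 Affymetrix mouse 430 2.0 arrays. Adult mice were 16 weeks and juvenile mice 21 days old. At each age an LPS+MV group inhaled aerosolized lipopolysaccharide (LPS) of Escherichia coli, made from 20 mL of a solution at 0.1 mg/mL and given over 30 min, and was then mechanically ventilated (MV) for 2 h. The ventilator gave a tidal volume of 15 mL/kg at 80 breaths/min, with 30% oxygen and a positive end-expiratory pressure of 2 cmH2O. The LPS group inhaled the same aerosol and breathed spontaneously for 2 h with food and water, the MV group was ventilated for 2 h without LPS, and the control group was untreated and breathed spontaneously. There were 4 animals per group, but 3 juveniles with LPS+MV and 3 with MV. No study period is stated for the controls, and sex is not labelled. The comparisons address how age and these exposures, alone and together, bear on collagen mRNA in the lung.

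Collagen chains wind around each other in the endoplasmic reticulum into a helical molecule, which is secreted, trimmed and cross-linked outside the cell. Fibrillar collagens (types I, III and V) give the airway and vessel walls and the interstitium their tensile strength, and fibroblasts are a main source. Type IV forms the sheet of the basement membranes, with the chains of Col4a3, Col4a4 and Col4a5 in that of the alveolar epithelium, and type VI makes beaded filaments that link cells to both. The mouse lung still lays down matrix in its alveolar walls at weaning age.

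The promoters of 3 members that bracket the results below are shown: Col1a2 and Col3a1, fibrillar chains that were lower in adults in every condition, and Col8a2, which was higher in adult controls. Each run holds the 250 bases before the annotated start of the gene, on its own strand, from RefSeq (GRCm38.p6). Capitals mark 3 short promoter motifs that were searched on both strands. The first searched was CCAAT. The second motif was the common TATA box spelling TATAAA. The other one was the GC box, spelled GGGCGG here. Where a GC box lies on the opposite strand, its capitals show the reverse complement, CCGCCC. Of the 4 GC boxes of Col8a2 the last pair overlap. The windows lie at chr6:4505368-4505617 (plus strand, Col1a2), chr1:45311288-45311537 (plus strand, Col3a1) and chr4:126286544-126286793 (plus strand, Col8a2).
Col1a2: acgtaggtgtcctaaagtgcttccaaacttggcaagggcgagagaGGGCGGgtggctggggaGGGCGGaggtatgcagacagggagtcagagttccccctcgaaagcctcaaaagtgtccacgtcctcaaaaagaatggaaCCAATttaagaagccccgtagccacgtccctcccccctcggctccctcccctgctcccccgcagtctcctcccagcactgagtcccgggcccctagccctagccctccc
Col3a1: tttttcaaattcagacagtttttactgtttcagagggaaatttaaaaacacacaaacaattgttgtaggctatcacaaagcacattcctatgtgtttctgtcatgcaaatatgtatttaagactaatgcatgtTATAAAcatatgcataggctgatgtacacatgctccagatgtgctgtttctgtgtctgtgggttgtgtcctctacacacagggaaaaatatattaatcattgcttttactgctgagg
Col8a2: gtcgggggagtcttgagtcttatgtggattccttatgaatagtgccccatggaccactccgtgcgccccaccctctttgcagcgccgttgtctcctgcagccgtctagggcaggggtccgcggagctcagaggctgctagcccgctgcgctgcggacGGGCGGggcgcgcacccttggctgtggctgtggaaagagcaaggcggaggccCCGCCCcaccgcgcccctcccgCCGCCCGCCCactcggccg
The Col1a2 window held 1 CCAAT and 2 GGGCGG, the Col3a1 window 1 TATAAA and the Col8a2 window 4 GGGCGG. RefSeq windows were at hand for 33 of the 42 genes. CCAAT was in 13 of their 36 windows (36.1%, against 33.8% of 32851 promoters of all genes), TATAAA in 5 (13.9%, against 12.4%) and GGGCGG in 21 (58.3%, against 32.7%). A match describes these letters only. Several members also neighbour each other in the RefSeq gene order: Col3a1 with Col5a2 and Col4a4 with Col4a3 on chromosome 1, Col6a2 with Col6a1 on chromosome 10, Col4a1 with Col4a2 on chromosome 8 and Col4a6 with Col4a5 on the X chromosome.

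Values are probe set intensities, in linear units that the authors had already normalized between arrays. Differences are log2 fold changes of intensity + 32 from a limma fit over all 8 groups, given with their standard error (SE). The added 32 shrinks the fold change of dim genes. A gene passed when its Benjamini-Hochberg adjusted p, over all 13089 genes, was under 0.05. The number of arrays limits the precision. Array medians were alike (21.6 to 22.8), and 4 arrays stood further from their group means than the rest: adult LPS+MV replicate 2, adult MV replicate 3, juvenile LPS+MV replicate 3 and juvenile control replicate 4. Xist, the transcript of the inactive X chromosome, split the arrays: it was at 425 to 771 on 11 arrays and at 18.2 to 27.0 on 19. Eif2s3y, a gene of the Y chromosome, split the same arrays the other way, at 5.84 to 10.1 on the 11 and 160 to 238 on the 19. Both genes together show the pattern of female and male animals. The labels give no sex, so the split is named by Xist here. High Xist occurred on 3 of 4 adult LPS+MV, 0 of 4 adult LPS, 4 of 4 adult MV and 0 of 4 adult control arrays, and on 2 of 3 juvenile LPS+MV, 0 of 4 juvenile LPS, 1 of 3 juvenile MV and 1 of 4 juvenile control arrays. Adult MV and its control therefore differ completely in this pattern, so that the 2 cannot be told apart within that comparison alone. In whole lung, fewer cells of a type and less RNA per cell cannot be told apart.

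The 8 genes that were not tested (Col6a5, Col9a2, Col10a1, Col11a1, Col11a2, Col19a1, Col24a1 and Col26a1) had intensities of 5.54 to 18.0 on their probe sets. Several of these are cartilage collagens. Among the tested genes, 13 had a mean intensity over 300: Col1a1, Col1a2, Col3a1, Col5a1 and Col5a2 of the fibrils, Col4a1 to Col4a5 of the basement membrane, and Col6a1 to Col6a3. A further 12 had a mean under 50, near the array medians, where the added 32 shrinks a fold change most.

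In untreated lungs, the chains of the main fibrils, of the basement membrane and of the beaded filaments had less mRNA in adults than in juveniles. In adult controls 18 of 34 collagen genes differed from juvenile controls, against 25.2% of all genes tested: 17 were lower, against 10.1% of all genes, and 1 was higher, against 15.1%. The adult and juvenile arrays did not overlap for 17, against 22.1% of all genes. The median over the 34 was -0.21, beside 0.01 over all genes tested. Among the fibrillar genes 7 of 8 tested were lower, among type IV genes 5 of 6, among type VI genes 3 of 4, and among the 7 genes of fibril-associated collagens 1.

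Col5a2, a chain of the type V collagen that seeds thin fibrils, was at 705, 610, 645 and 579 in adult controls, against 1601, 1662, 1345 and 1609 in juvenile controls. The 4 adult values lay below all 4 juvenile values, by -1.25 ± 0.10 on the log2 scale (limma, adjusted p = 9.87e-10). Col3a1, the type III chain of compliant tissue, was at 5180, 4222, 4252 and 4005 in adult controls, against 9487, 9843, 9098 and 9397 in juvenile controls. The lowest juvenile value was well above the highest adult value (-1.10 ± 0.12, limma, adjusted p = 4.14e-07). Col1a1, the major type I chain, was at 497, 722, 732 and 682 in adult controls, against 1180, 1605, 1069 and 1855 in juvenile controls. The juvenile animals varied more among themselves, and the groups were still separate (-1.06 ± 0.18, limma, adjusted p = 0.000102). Its partner chain Col1a2 fell by 0.92 ± 0.13, Col5a1 by 0.68 ± 0.13 and Col27a1, a fibrillar chain best known from cartilage, by 0.37 ± 0.07. Col2a1, the cartilage type II chain, was dim at 32.2 or less in either group mean, and its small difference (-0.20 ± 0.06) was lost without adult control replicate 1 or juvenile control replicate 1 (adjusted p up to 0.0616).

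In type IV, Col4a5 was at 735, 660, 520 and 472 in adult controls, against 1325, 1342, 1131 and 1323 in juvenile controls. The adult values reached at most 735 and the juvenile values started at 1131, a difference of -1.08 ± 0.13 (limma, adjusted p = 1.08e-06). Col4a1 and Col4a2, the pair found in nearly all basement membranes, were lower by -0.94 ± 0.12 and -0.79 ± 0.14. The alveolar chains Col4a4 and Col4a3 differed by -0.70 ± 0.14 and -0.37 ± 0.11, the smallest difference of the 5 type IV genes that passed. In type VI, Col6a2 (-1.05 ± 0.11), Col6a1 (-0.75 ± 0.10) and Col6a3 (-0.74 ± 0.13) were all lower, with no overlap between the adult and juvenile controls. Col6a4, at 21.2 ± 2.29 in adult controls and 24.4 ± 2.28 in juvenile controls (SD, n = 4 each), did not pass.

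Col8a2, a short-chain network collagen, was the member that ran the other way. It was at 38.9, 34.2, 37.4 and 38.9 in adult controls, against 17.6, 27.3, 20.4 and 24.6 in juvenile controls. Every adult control was above every juvenile one (0.35 ± 0.06, limma, adjusted p = 7.07e-05). The adult values were not far above the array medians, and juvenile control replicates 1 and 3 lay below theirs (21.6 and 22.5). Col8a1, its partner chain, was at 61.9 ± 8.88 in adult controls and 55.1 ± 9.23 in juvenile controls (SD, n = 4 each) and did not pass. None of the 4 transmembrane collagens passed, and of the multiplexins, which carry an antiangiogenic fragment at their end in the case of Col18a1, Col15a1 was lower (-0.27 ± 0.09), with overlapping groups. Its call was lost without adult control replicate 2, 3 or 4 or juvenile control replicate 1 or 2 (adjusted p up to 0.146).

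**Figure D1:**
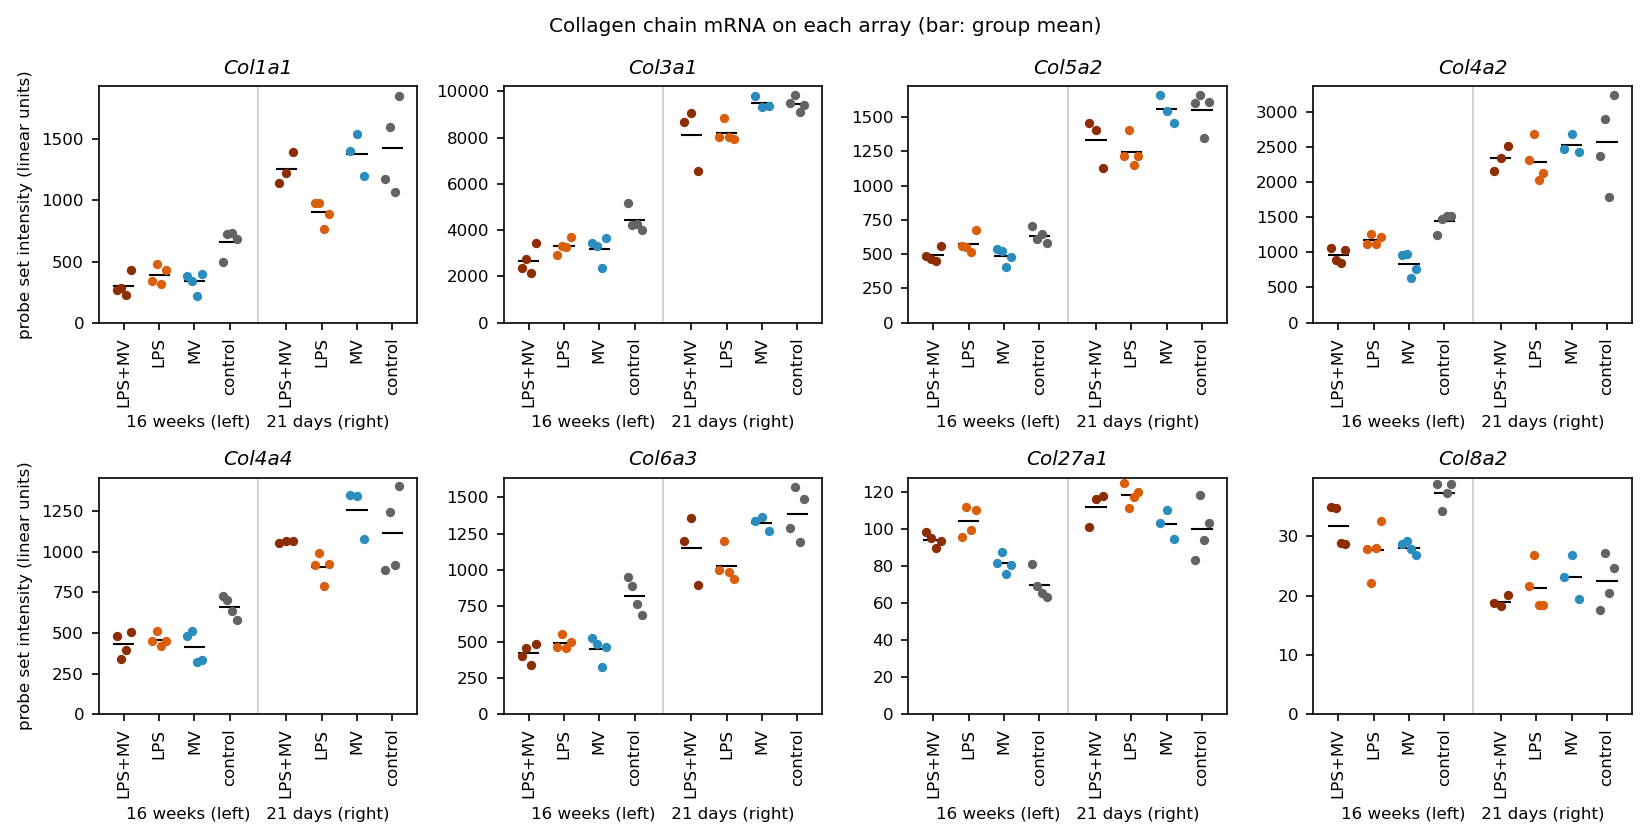
Probe set intensity (linear units, axis from 0) of 8 collagen genes on every array. Points are animals, bars are group means, and the 4 adult groups stand left of the 4 juvenile groups in each panel. Col5a2 in adult controls reached at most 705 while juvenile controls started at 1345, and Col8a2 shows the reverse order in the controls.

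The same age comparison can be made within each treatment, on separate animals. Of the 34 genes, 18 differed between adult and juvenile animals given MV alone, all lower (23.3% of all genes, 8.31% higher and 15% lower), and 18 did not overlap (30.6% of all genes). Between the LPS groups 15 differed, all lower (16.4% of all genes, 8.85% higher and 7.51% lower), and 15 did not overlap (21.4% of all genes). Between the LPS+MV groups 17 differed, 16 of them lower and 1 higher (12.2% of all genes, 4.94% lower and 7.3% higher), and 20 did not overlap (24.2% of all genes). The same 13 genes were lower in adults in all 4 comparisons, and in each of the 4 their adult and juvenile arrays did not overlap. They are the 13 brightest members named above, and 1.93% of all genes tested, or 4.06% of the 3227 genes with a mean intensity over 300, were lower in all 4. Another 7 genes were lower in 1 to 3 comparisons, 13 passed in none, and Col8a2 was higher in 2. Of the 13, Col5a3, Col8a1, Col9a1, Col17a1, Col20a1, Col22a1 and Col25a1 passed in no comparison of any kind here.

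In both ventilated conditions Col1a1 had the largest age difference of the members on the probe sets used. Other probe sets gave another order. The second probe set of Col1a1 had means of 184 in adult and 373 in juvenile MV lungs, and that of Col5a2 52.0 and 610. On the probe set used, the arrays read as follows. Col1a1 was at 385, 343, 219 and 400 in adult MV lungs, against 1409, 1542 and 1202 in juvenile MV lungs. The lowest juvenile array was 1202 and the highest adult array 400 (-1.96 ± 0.20, limma, adjusted p = 3.60e-08). With LPS+MV, Col1a1 was at 265, 280, 229 and 432 in adults, against 1143, 1222 and 1397 in juveniles, a difference of -1.98 ± 0.20. The LPS groups, whose 8 arrays all had low Xist, gave -1.15 ± 0.18 for Col1a1, -1.30 ± 0.12 for Col3a1, -1.07 ± 0.10 for Col5a2 and -1.01 ± 0.13 for Col6a3. Those 13 genes therefore also differed by age among arrays of 1 Xist pattern. Col13a1, a transmembrane collagen of cell contacts, joined them after MV (-0.65 ± 0.13), LPS (-0.49 ± 0.12) and LPS+MV (-0.52 ± 0.13, lost without juvenile LPS+MV replicate 3, adjusted p = 0.0694). Col16a1, which sits beside fibrils and basement membranes, was lower in controls, MV and LPS+MV by -0.28 ± 0.08, -0.39 ± 0.08 and -0.37 ± 0.08.

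**Figure D2:**
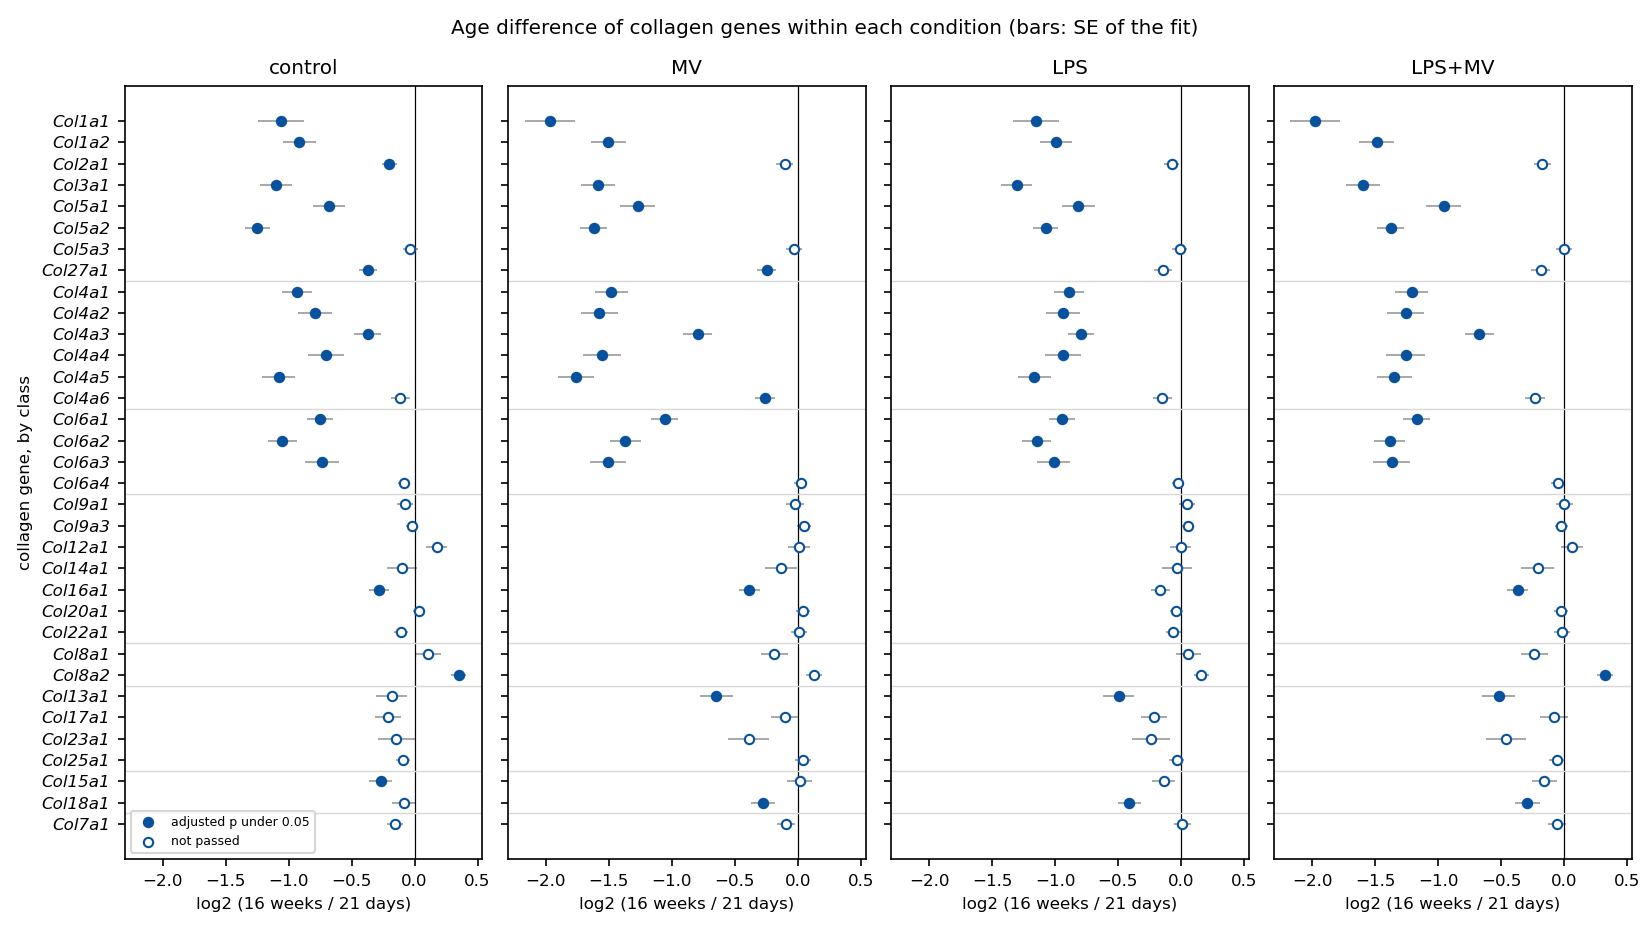
Log2 ratio of intensity + 32, 16 weeks over 21 days, for the 34 tested collagen genes in each of the 4 conditions, with SE bars and filled points for an adjusted p under 0.05. Lines separate the classes, from fibrillar at the top through type IV, type VI, fibril-associated, short-chain, transmembrane and multiplexin genes to Col7a1. The 13 bright genes stand left of 0 in all 4 panels, and Col8a2 stands right of 0 in each, passing in 2.

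Adult lungs ventilated without LPS had lower mRNA of many collagen genes than adult controls, and these groups also differed in Xist. In adult MV lungs 17 of 34 genes passed against adult controls, all lower, where 31.5% of all genes passed, 24.3% lower and 7.17% higher. The MV and control arrays did not overlap for 17 members, against 30.5% of all genes. The median over the 34 genes was -0.18, beside -0.06 over all genes. Among all genes called in this comparison 77.2% were lower, and 58.5% after quantile normalization. The 17 were 5 fibrillar genes, the 5 type IV genes Col4a1 to Col4a5, 3 type VI genes, Col8a2, Col13a1, Col18a1 and Col23a1. None of the 7 fibril-associated genes passed.

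Col6a3, the longest chain of type VI, was at 526, 485, 329 and 463 in adult MV lungs, against 950, 885, 761 and 687 in adult controls. No MV array reached the lowest control (-0.83 ± 0.13, limma, adjusted p = 5.13e-05). Col4a2 was at 958, 979, 638 and 769 with MV, against 1250, 1475, 1519 and 1517 in controls. Replicate 3 of the MV group was the lowest array here as for Col6a3, and the groups did not overlap (-0.78 ± 0.14, limma, adjusted p = 0.000121). Col1a1 fell by 0.92 ± 0.18 from the control values given above, with an adjusted p of 0.000461 by limma. Col4a4 was at 484, 515, 318 and 336 with MV, against 729, 700, 638 and 582 in controls (-0.66 ± 0.14), again with no overlap. Col1a2 (-0.57 ± 0.13), Col13a1 (-0.54 ± 0.12), Col5a1 (-0.53 ± 0.13) and Col6a2 (-0.46 ± 0.11) followed. Col3a1, Col5a2, Col4a1, Col4a3, Col6a1 and Col8a2 passed with differences of -0.48 to -0.21. Of the smaller differences, that of Col4a5 was lost without adult control replicate 1 or 2 or MV replicate 2, 3 or 4 (adjusted p up to 0.225), that of Col23a1 without adult control replicate 2 or MV replicate 3 or 4 (up to 0.125), and that of Col18a1 without MV replicate 3 (0.0909).

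Since every adult MV array had high Xist and every adult control low Xist, a fit with high or low Xist as a term, which draws on the other groups that hold both, is given beside these. Those groups are adult LPS+MV and juvenile control, MV and LPS+MV. The term takes the Xist effect to be the same at both ages, which was not tested. The fit left 3 of the 17 genes past the threshold: Col6a3 (-0.64 ± 0.17, adjusted p = 0.0137), Col4a2 (-0.59 ± 0.17, adjusted p = 0.0243) and Col13a1 (-0.55 ± 0.16, adjusted p = 0.0272), by limma. All 17 were still negative. The term also left 13.1% of all genes past the threshold in place of 31.5%, and its median SE was 0.111 in place of 0.085. How much of the adult MV difference belongs to ventilation and how much to the Xist pattern was not tested beyond this term.

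In juveniles, ventilation alone changed no collagen gene past the threshold by limma. There were 0 of 34 genes, with 2 at an unadjusted p under 0.05, where 10.9% of all genes passed. Col4a5 was at 1615, 1697 and 1593 in juvenile MV lungs, against 1325, 1342, 1131 and 1323 in juvenile controls. Its 3 MV arrays all lay above the controls, opposite in sign to adults, but the difference of 0.35 ± 0.14 had an adjusted p of 0.109 by limma. Col17a1, a hemidesmosome collagen, was the other gene (-0.26 ± 0.11). The count became 1 without juvenile control replicate 1.

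The change with MV was tested for a difference between the ages. The adult change minus the juvenile change was negative for 5 of 34 genes that passed, where 6.13% of all genes differed, 4.84% negative and 1.3% positive. The difference of the 2 log2 changes was -0.85 ± 0.21 for Col4a4 (limma, adjusted p = 0.0167), -0.77 ± 0.20 for Col6a3, -0.79 ± 0.20 for Col4a2, -0.68 ± 0.19 for Col4a5 and -0.90 ± 0.27 for Col1a1 (adjusted p = 0.0435). All 5 were lower with MV in adults, while the juvenile changes, none of which passed, were 0.19 ± 0.15, -0.06 ± 0.14, 0.01 ± 0.15, 0.35 ± 0.14 and -0.02 ± 0.20 in the same order of genes. None of the 5 passed with the Xist term (adjusted p of 0.142 to 0.288), none without juvenile MV replicate 2, and 9 genes passed without juvenile control replicate 4. The count was 3 without adult control replicate 2, adult MV replicate 3, juvenile MV replicate 1 or juvenile control replicate 3. These values come from the probe set used for each gene. The second probe set of Col1a1 had lower means with MV at both ages, 184 against 242 in adults and 373 against 518 in juveniles. Over the 18 genes with more than 1 kept probe set, all probe sets passed this test for 1 gene and only some for 4. Signs were mixed for 4.

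**Figure D3:**
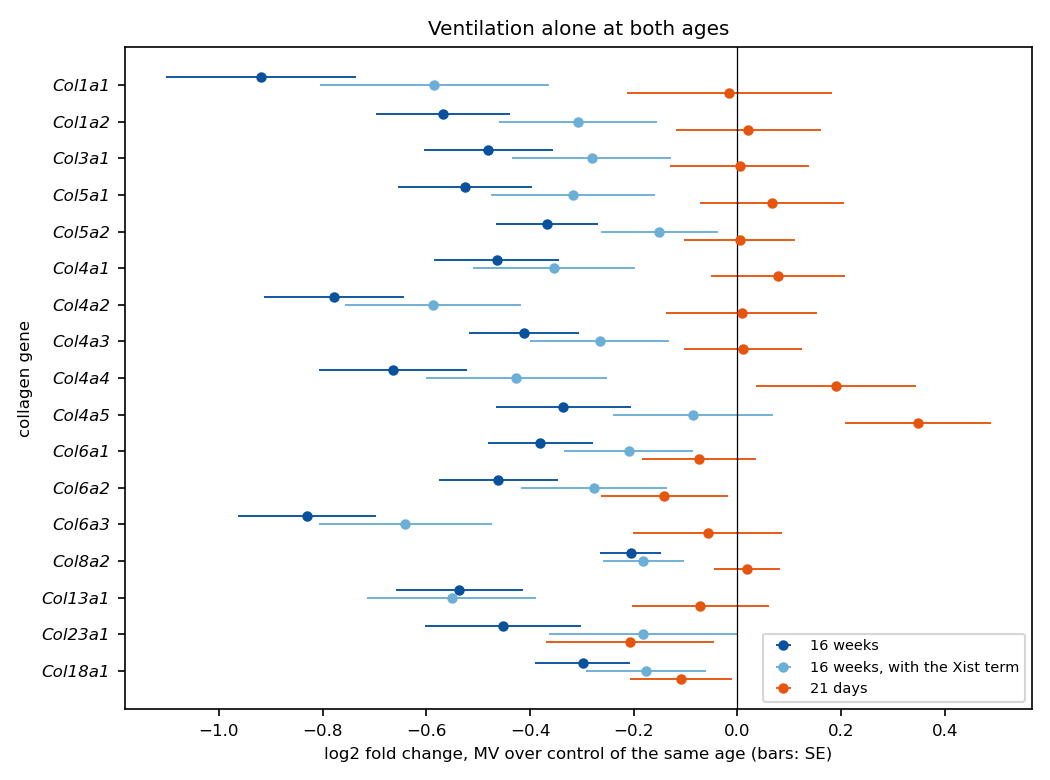
Log2 fold change of MV over control of the same age, with SE bars, for the 17 collagen genes that passed in adults. Dark blue points are adults, light blue points adults with the Xist term and orange points juveniles. The Xist term moves most adult points towards 0 while keeping all 17 negative, and the juvenile points lie on both sides of 0.

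Inhaled LPS without ventilation went with lower mRNA of both type I genes and of 3 of 4 type VI genes in adults. In juveniles 7 of 34 genes passed, with both type I genes, Col6a2 and Col6a3 among the lower ones. The change with LPS differed between the ages for 0 of 34 genes by limma. None of the adult LPS or adult control arrays had high Xist. In adult LPS lungs 15 of 34 genes passed against adult controls, 12 lower and 3 higher, where 36% of all genes passed, 23% lower and 12.9% higher. The arrays did not overlap for 14 members, against 34.6% of all genes. The median over the 34 was -0.18, beside -0.04 over all genes. Col6a3 was at 462, 557, 455 and 499 in adult LPS lungs, against 950, 885, 761 and 687 in adult controls, with no overlap (-0.69 ± 0.13, limma, adjusted p = 0.000193). Col6a2 (-0.53 ± 0.11) and Col6a1 (-0.43 ± 0.10) fell with it. Col1a1 was at 343, 479, 319 and 431 in adult LPS lungs, all below the control low of 497 (-0.70 ± 0.18, limma, adjusted p = 0.00372), and Col1a2 fell by 0.50 ± 0.13. Col3a1 fell by 0.41 ± 0.12, a call lost without adult control replicate 1 (adjusted p = 0.0545). Of type IV, 1 of 6 genes passed, Col4a4 (-0.50 ± 0.14), while Col4a1 hardly moved (-0.02 ± 0.12). Col8a2 also fell (-0.22 ± 0.06). Col5a1 (-0.43 ± 0.13), Col13a1 (-0.38 ± 0.12), Col14a1 (-0.37 ± 0.12) and Col12a1 (-0.23 ± 0.08) were the other lower genes. Of these, Col13a1 was lost without adult control replicate 2, Col14a1 without adult control replicate 1 or 2 or LPS replicate 2 or 3, and Col12a1 without adult control replicate 1 or 2 or LPS replicate 1 or 3 (adjusted p up to 0.135).

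Col27a1 was the collagen gene with the smallest p in adult LPS lungs, and it was higher. It was at 95.6, 112, 99.3 and 110.2 with LPS, against 81.0, 69.0, 65.3 and 63.2 in adult controls. The groups did not overlap (0.42 ± 0.07, limma, adjusted p = 4.12e-05). The other 2 higher genes were dim: Col9a3 (0.18 ± 0.05) and Col7a1, which anchors basement membranes (0.19 ± 0.07, lost without adult control replicate 1 or LPS replicate 2 or 4, adjusted p up to 0.133).

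In juvenile LPS lungs 7 of 34 genes passed against juvenile controls, 6 lower and 1 higher, a share no larger than the 22.9% over all genes (13.3% lower, 9.58% higher). The arrays did not overlap for 6 members, against 22% of all genes. Col6a2 was at 1617, 1653, 1247 and 1271 with LPS, against 1903, 2034, 1887 and 1972 in juvenile controls, with no overlap (-0.43 ± 0.11, limma, adjusted p = 0.00627). Col14a1, which binds the surface of type I fibrils, was at 109, 105, 112 and 103 with LPS, against 175, 164, 161 and 135 in juvenile controls. Its LPS arrays were close together and all below the controls (-0.45 ± 0.12, limma, adjusted p = 0.00697). Those 2 calls held when any 1 array was left out. The other 5 were Col1a1 (-0.61 ± 0.18), Col1a2 (-0.42 ± 0.13), Col5a2 (-0.31 ± 0.10), Col6a3 (-0.42 ± 0.13) and, higher, Col27a1 (0.20 ± 0.07). All 5 were lost without juvenile LPS replicate 3 (adjusted p of 0.0582 to 0.0799). The count was 3 without LPS replicate 4 or juvenile control replicate 2 or 4, and 4 without LPS replicate 1. No gene differed between the ages in its change with LPS (0 of 34 by limma, 4 at an unadjusted p under 0.05, where 3.69% of all genes passed), and the count became 1 without juvenile control replicate 4.

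LPS followed by ventilation gave the lowest group means of Col1a1 and Col1a2 of the 8 groups, in adults. In adult LPS+MV lungs 16 of 34 genes (47.1%) passed against adult controls, a share near the 42.1% over all genes. Of the 16, 15 were lower and 1 higher, where 27.3% of all genes were lower and 14.8% higher. The arrays did not overlap for 16 members, against 42.2% of all genes. Col1a1 was at 265, 280, 229 and 432 in adult LPS+MV lungs, against 497, 722, 732 and 682 in adult controls (-1.07 ± 0.18, limma, adjusted p = 3.41e-05). Replicate 4, the LPS+MV array with low Xist like the controls, was the highest of its group and still below all of them. That array was also the highest of its group for Col1a2, Col3a1, Col4a5 and Col6a1 to Col6a3, but the lowest for Col4a1. For Col4a5 it was at 644, inside the adult control range of 472 to 735. The part of the Xist pattern in this order was not tested. Col6a3 (-0.91 ± 0.13), Col3a1 (-0.73 ± 0.12), Col1a2 (-0.72 ± 0.13), Col6a2 (-0.58 ± 0.11) and Col6a1 (-0.53 ± 0.10) fell, and Col27a1 was higher (0.32 ± 0.07). Col4a1 to Col4a4, Col5a1, Col5a2, Col13a1, Col18a1 and Col23a1 passed as well, with Col4a1 (-0.36 ± 0.12) lost without adult LPS+MV replicate 4 or control replicate 2 (adjusted p up to 0.0541). With the Xist term 10 of the 16 passed, those 7 and Col4a2, Col4a4 and Col13a1.

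In juvenile LPS+MV lungs no collagen gene passed against juvenile controls by limma (0 of 34, 1 at an unadjusted p under 0.05), although 31.3% of all genes did. Col1a1 was at 1143, 1222 and 1397 with LPS+MV, inside the range of the juvenile controls. Col3a1 was at 8685, 9073 and 6568, below the lowest control of 9098, with a difference of -0.23 ± 0.13 that did not pass. The count became 1 without juvenile control replicate 1 or 3. The difference between the ages in this response passed for 0 of 34 genes by limma, with 8 at an unadjusted p under 0.05, where 2.1% of all genes passed. The largest was that of Col1a1, -0.91 ± 0.27. The count became 5 without the 4 arrays that stood apart, 4 without juvenile control replicate 4, 3 without adult LPS+MV replicate 4, and 1 without adult control replicate 1 or juvenile LPS+MV replicate 3.

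**Figure D4:**
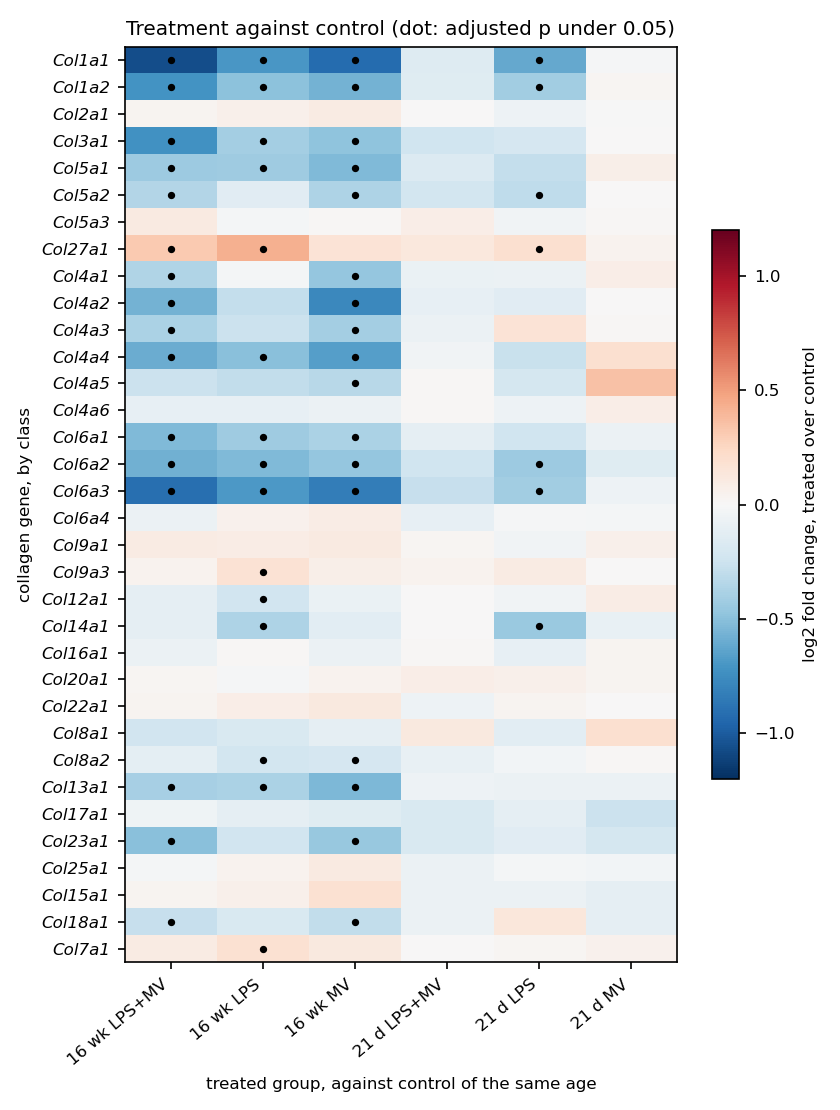
Log2 fold change of each treated group over the control of its age for the 34 tested collagen genes, blue lower and red higher, with a dot where the adjusted p was under 0.05. Adults (16 wk) are the 3 left columns, which share their control arrays, and juveniles (21 d) the 3 right columns, which share theirs. Col1a1, Col1a2 and Col6a1 to Col6a3 carry dots in all 3 adult columns, type IV rows mostly in the 2 adult columns with ventilation, and in juveniles the 7 dots stand in the LPS column.

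Adding ventilation to LPS changed few members. In adults LPS+MV against LPS passed for 0 of 34 genes by limma (8 at an unadjusted p under 0.05), where 7.04% of all genes passed. The smallest p was that of Col4a1, at 2311, 2004, 1982 and 1903 with LPS+MV and at 2528, 3053, 2398 and 2413 with LPS (-0.33 ± 0.12, adjusted p = 0.0860), with no overlap. The count was 1 without adult LPS+MV replicate 4. In juveniles LPS+MV against LPS passed for 1 gene, which was higher, where 15.4% of all genes passed, 5.97% higher and 9.45% lower. Col14a1 was at 148, 172 and 155 with LPS+MV, against 109, 105, 112 and 103 with LPS. The 3 doubly exposed lungs lay above all 4 (0.45 ± 0.13, limma, adjusted p = 0.0188), a call lost without LPS+MV replicate 2 (0.0812). With the Xist term Col1a1 (0.68 ± 0.21) and Col1a2 (0.45 ± 0.14) passed as well.

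Against ventilation alone, LPS+MV passed for 1 gene in adults, which was lower (17.4% of all genes, 5.34% lower and 12% higher), and for 0 in juveniles by limma (1 at an unadjusted p under 0.05, where 14.7% of all genes passed). The adult gene was Col6a4, dim at 18.7 ± 1.60 with LPS+MV and 24.5 ± 3.31 with MV (SD, n = 4 each), a difference of -0.16 ± 0.05. Its call was lost without adult LPS+MV replicate 2 or 4 or MV replicate 4 (adjusted p up to 0.114), and without MV replicate 3 the count was 2. The interaction of LPS with MV, the change with both minus the sum of the single changes, passed in adults for 2 of 34 genes, both positive (7.16% of all genes, 5.5% positive and 1.66% negative). They were Col8a2 (0.30 ± 0.08, adjusted p = 0.0280) and Col6a3 (0.61 ± 0.19, adjusted p = 0.0464), by limma. Both were lower with either exposure and fell less with both than the sum of those changes. Of the 16 adult arrays, leaving out 1 ended the call of Col6a3 in 11 cases (adjusted p up to 0.116) and that of Col8a2 in 3 (without adult LPS+MV replicate 2, LPS replicate 2 or MV replicate 3, up to 0.0676). The count ranged from 0, without adult LPS+MV replicate 2, to 4, without MV replicate 2. In juveniles the interaction passed for 0 of 34 genes by limma (1 at an unadjusted p under 0.05, Col14a1 with 0.54 ± 0.18, where 0.749% of all genes passed).

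Of the members, 18 had more than 1 probe set above the filter, and these did not always read the same. Between the controls, the age difference of the 13 bright genes was negative on every one of their kept probe sets, but its size varied. Col1a2 was lower in adult controls by -0.92 ± 0.13 on the probe set used and by -2.25 ± 0.18 on the other, Col5a2 by -1.25 ± 0.10 and -2.11 ± 0.19, and Col3a1 by -1.10 ± 0.12 and -1.81 ± 0.25. For the treatments, a second probe set sometimes took away the call. The second probe set of Col1a1 read -0.35 ± 0.17 with MV in adults (adjusted p = 0.122) and -0.28 ± 0.17 with LPS (adjusted p = 0.226, limma over all probe sets), and its mean was higher in juvenile LPS lungs (545) than in juvenile controls (518). The other 2 probe sets of Col5a1 read -0.16 ± 0.11 and -0.00 ± 0.12 with MV in adults. Both probe sets of Col27a1 were higher in adult LPS lungs (0.42 ± 0.07 and 0.21 ± 0.07). Over the 18 genes, all probe sets passed for 10 between the controls of the 2 ages, 8 with MV in adults, 5 with LPS in adults, 10 with LPS+MV in adults and 1 with LPS in juveniles. Only some of the probe sets passed for 2, 4, 7, 3 and 6 genes in the same order of comparisons. The matching shares over all genes with several probe sets were not computed.

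**Figure D5:**
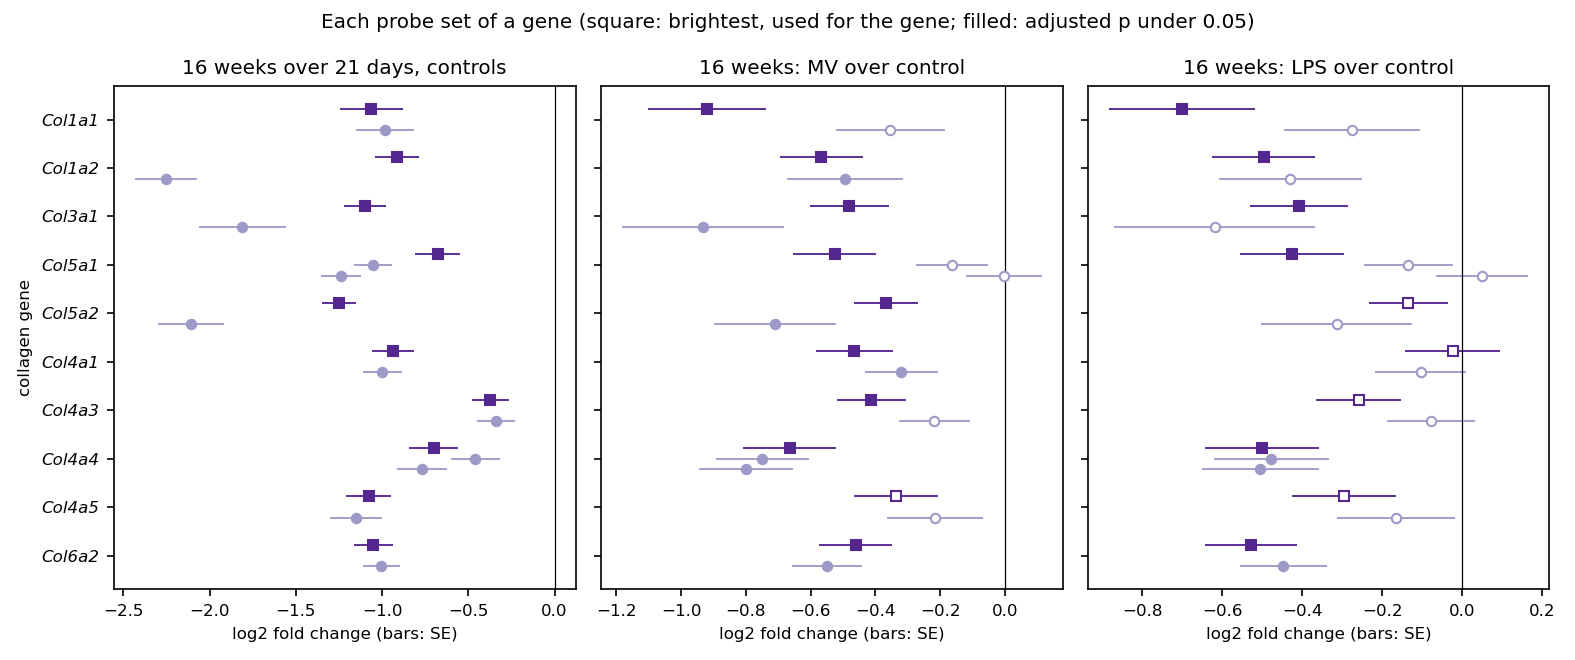
Log2 fold change with SE of every probe set above the filter for the 10 of the 13 bright collagen genes that have more than 1, between adult and juvenile controls, for adult MV over control and for adult LPS over control. Squares are the probe set used for the gene and filled symbols have an adjusted p under 0.05 over all probe sets, which is why Col4a5 is open here for MV. All points are left of 0 in the age panel, while Col5a1 and Col1a1 split in the treatment panels.

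Genes that modify, secrete and cross-link collagen were read in the same comparisons. Between the controls of the 2 ages 10.1% of all genes were lower and 15.1% higher, beside which these counts stand. Of the processing and cross-linking genes 8 of 14 were tested, and 6 of these were lower in adult than in juvenile controls and 0 higher. They include Lox, a lysyl oxidase that starts cross-links (-1.22 ± 0.14), Sparc, a collagen chaperone (-0.67 ± 0.07), Bmp1, which removes the C-terminal propeptide (-0.40 ± 0.09) and Loxl1 (-0.43 ± 0.09). Of 19 tested modification and secretion genes 4 were lower and 3 higher, with P3h1 (-0.44 ± 0.08), Fkbp14 (-0.76 ± 0.15), Ppib (-0.25 ± 0.05) and the chaperone Serpinh1 (-0.60 ± 0.13) having the smallest p. Of 8 proteoglycans that coat fibrils 2 were lower and 2 higher: Aspn (-1.43 ± 0.19) and Ogn (-0.34 ± 0.11), and Dcn (0.78 ± 0.11) and Prelp (0.80 ± 0.18). Of 6 receptors 3 were lower, Mrc2 (-0.54 ± 0.13), Itga1 (-0.46 ± 0.11) and Itgb1 (-0.50 ± 0.12), and Ddr1 was higher. Of 10 growth factor genes 4 were higher, with Ccn1 (1.43 ± 0.36) and Tgfb1 (0.40 ± 0.12) among them, and 0 lower.

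With MV in adults 11 of 19 modification genes were lower and 1 higher, where 24.3% of all genes were lower and 7.17% higher. The smallest p were those of Creb3l1, a transcription factor of secretory cells (-0.71 ± 0.10), P3h4 (-0.48 ± 0.08), Crtap (-0.55 ± 0.10) and Plod1 (-0.51 ± 0.11). Of the 8 cross-linking genes Pcolce (-0.70 ± 0.10), Loxl1 (-0.63 ± 0.09) and Sparc (-0.49 ± 0.07) were lower, while Lox was higher (0.51 ± 0.14). Of 8 proteoglycans 1 was lower and 1 higher, and of 6 receptors 2 were lower and 1 higher. Of the growth factor genes 6 of 10 were lower and 0 higher, with Pdgfb (-0.94 ± 0.10), Pdgfa (-0.72 ± 0.11), Tgfb2 (-0.63 ± 0.11) and Tgfb1 (-0.65 ± 0.12). With LPS in adults, where 23% of all genes were lower and 12.9% higher, 4 of 8 cross-linking genes were lower (Loxl1, -0.50 ± 0.09, Sparc, -0.35 ± 0.07, and Pcolce, -0.48 ± 0.10, among them) and Lox was again higher (0.64 ± 0.14). Of the other lists 6 of 19 modification genes, 2 of 8 proteoglycans, 2 of 6 receptors and 5 of 10 growth factor genes were lower, and 2 modification genes were higher. In juvenile LPS lungs, where 13.3% of all genes were lower and 9.58% higher, 4 of 8 cross-linking genes were lower and 1 higher, with Loxl1 (-0.43 ± 0.09), Bmp1 (-0.30 ± 0.09) and Pcolce (-0.36 ± 0.10) lower and Lox higher (0.45 ± 0.14). Of the other lists 6 modification genes, 2 proteoglycans, 1 receptor and 2 growth factor genes were lower there, and 2 growth factor genes were higher.

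Marker genes of other cells moved in several of these comparisons. Between the controls of the 2 ages, all 5 tested markers of cycling cells were lower in adults, with a summed intensity of 208 to 440 in adults and 377 to 2493 in juveniles. Of 5 neutrophil markers 3 were higher, S100a8, S100a9 and Csf3r, with a sum of 2397 to 22277 in adults and 803 to 3831 in juveniles. Of 5 fibroblast markers 2 were lower in adults, Dpt and Tcf21, and 1 was higher, Pi16, and their sum was 4428 to 5128 in adults and 5319 to 6587 in juveniles. Of 6 smooth muscle and pericyte markers 2 were lower (5686 to 6226 in adults, 6296 to 7227 in juveniles), as was 1 of 6 endothelial markers. Higher in adults were 2 of 5 alveolar type 1, 1 of 4 alveolar type 2, 1 of 4 mesothelial and 1 of 2 tested cartilage markers.

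With MV in adults 4 of 5 alveolar type 1 markers were lower (sum 16647 to 18648 with MV, 21872 to 24500 in controls), as were 3 of 4 mesothelial markers (431 to 548 with MV, 838 to 878 in controls) and 1 of 5 fibroblast markers (3807 to 4783 with MV, 4428 to 5128 in controls). Lower too were 2 of 6 endothelial, 1 of 4 alveolar type 2 and 1 of 5 neutrophil markers, while of 6 smooth muscle and pericyte markers 2 were lower and 2 higher (6383 to 8174 with MV, 5686 to 6226 in controls).

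With LPS in adults 5 of 6 endothelial markers were lower (3622 to 4456 with LPS, 4959 to 5915 in controls), 3 of 5 alveolar type 1 markers (18749 to 20877 with LPS, 21872 to 24500 in controls) and 3 of 6 smooth muscle and pericyte markers (4392 to 5324 with LPS, 5686 to 6226 in controls). Lower too were 2 of 5 fibroblast markers (3874 to 4396 with LPS, 4428 to 5128 in controls), 2 of 4 mesothelial markers (495 to 671 with LPS, 838 to 878 in controls), 2 of 4 alveolar type 2 markers and 1 of 2 cartilage markers. Of 5 neutrophil markers 3 were higher (19859 to 31287 with LPS, 2397 to 22277 in controls).

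With LPS+MV in adults 4 of 6 endothelial markers were lower (3752 to 4523 with LPS+MV, 4959 to 5915 in controls), 3 of 5 alveolar type 1 markers (16098 to 18068 with LPS+MV, 21872 to 24500 in controls) and 3 of 4 mesothelial markers (488 to 649 with LPS+MV, 838 to 878 in controls). Lower too were 3 of 6 smooth muscle and pericyte, 3 of 4 alveolar type 2 and 1 of 2 cartilage markers. Of 5 fibroblast markers 1 was lower and 1 higher (4234 to 4418 with LPS+MV, 4428 to 5128 in controls), and 1 of 5 neutrophil markers was higher (16419 to 20898 with LPS+MV, 2397 to 22277 in controls).

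In juvenile LPS lungs all 5 cycling markers were lower (178 to 344 with LPS, 377 to 2493 in controls), and 2 of 5 fibroblast markers (4227 to 5470 with LPS, 5319 to 6587 in controls). Of 5 neutrophil markers 3 were higher (6675 to 8242 with LPS, 803 to 3831 in controls), and 1 alveolar type 1, 1 alveolar type 2 and 1 cartilage marker were lower. No cardiac or skeletal muscle marker passed in any of these 5 comparisons, but their sums varied widely between animals of some groups. Skeletal muscle markers summed to 159 to 6343 with LPS+MV in adults, 158 to 2171 with MV, 185 to 263 with LPS and 223 to 1096 in controls. Cardiac markers summed to 3580 to 10243 with LPS+MV in adults and 6980 to 7735 in controls. The part of these cell markers in the collagen results was not tested.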

How the data were processed

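The deposited values are probe set intensity on a linear scale, normalized between arrays by the authors before deposit with a method not given in the sources used here, and MAS5 is the one tool in the submitters' processing notes. Platform symbols were checked against the RefSeq gene table, where 34741 of 34945 probe sets with a single symbol matched and no symbol changed. Another 932 probe sets carried several symbols and 9160 were not listed. A probe set was kept if it exceeded the median intensity of an array on 3 or more arrays (24825 probe sets), and a gene was read on its probe set with the highest mean. The log2 of intensity + 32 was fitted in limma 3.58.1 under R 4.3.3 (lmFit, then eBayes with an intensity trend, 22 residual and 4.87 prior degrees of freedom), for 19 comparisons with two-sided tests and Benjamini-Hochberg adjustment within each. Up to 8 passing members with the smallest p are named per comparison with their fold change, up to 4 genes per list, and others by a value.

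The collagen genes, the gene lists and the tests were chosen with earlier results of these data known. Fkbp10, Adamts2, Adamts14, Loxl2, Itga11, Lamp3, Ly6g and Ccnb1 were among the list genes not analysed here. When tested on simulated data in which 200 genes of 13089 were given known changes, limma called 80% at log2 0.5 and 96% at log2 1 for adult against juvenile controls (6 false among 182 calls), 77% and 96% for adult MV against control (16 among 189) and 78% and 98% for adult against juvenile MV (9 among 185). The simulated noise was normal and independent between genes, and it held no Xist split. These shares therefore do not cover the overlap of Xist with adult MV. Results were recomputed after quantile normalization, with 1 as pseudocount, on all genes unfiltered, on averaged probe sets, on the compared groups alone, with a block for replicate number, with an Xist term (high above an intensity of 100), with each array left out and, added after the data were seen, 4 arrays left out together. Figures were drawn with matplotlib 3.10.9.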

Additional observations from a re-analysis of the deposited data

Results flagged for a closer look

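In 10 of the 204 sets of 4 arrays of a tested collagen gene, 1 array stood far from the other 3 by Dixon's test, where chance flags about 1 in 20 such sets. Adult MV replicate 3 was low for Col1a2 (1242, others 1731 to 1806) and for Col5a1 (142, others 222 to 224), and it is also the array with the lowest upper quartile of intensity, 89.1. Adult MV replicate 2 was high for Col7a1 (56.7, others 40.8 to 42.4). Adult LPS+MV replicate 4 was high for Col4a5 (644, others 434 to 446). Adult control replicate 1 was low for Col4a2 (1250, others 1475 to 1519). Among juvenile LPS arrays, replicate 2 was high for Col3a1 (8866, others 7941 to 8041) and replicate 1 for Col4a3 (873, others 659 to 695). Among juvenile controls, replicate 3 was low for Col4a5 (1131, others 1323 to 1342), replicate 2 for Col4a6 (69.5, others 88.4 to 91.9) and replicate 1 for Col25a1 (34.6, others 42.5 to 44.1).

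Changes that differed between groups by a test of the difference itself were those of 5 genes between the ages after MV: Col4a4 (-0.85), Col4a2 (-0.79), Col6a3 (-0.77), Col4a5 (-0.68) and Col1a1 (-0.90), as adult change minus juvenile change. The second probe set of Col1a1 had lower means with MV at both ages, 184 against 242 in adults and 373 against 518 in juveniles. In adults the joint effect of LPS and MV differed from the sum of the single effects for Col6a3 (0.61) and Col8a2 (0.30).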

How the results depend on the processing

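The counts of collagen genes that passed were within 1.5 times the reported ones under every alternative for the 4 age comparisons and for adult LPS against control, where leaving out 1 array gave 17 to 18 (controls), 15 to 19 (MV), 15 to 16 (LPS), 16 to 18 (LPS+MV) and 11 to 16 (adult LPS). With the Xist term, 3 genes passed for adult MV against control, 10 for adult LPS+MV against control, 3 for juvenile LPS+MV against LPS, 1 for the adult interaction of LPS and MV and 0 for the age difference in the MV response. With the replicate block, 2 passed for juvenile LPS+MV against LPS, 1 for adult LPS+MV against LPS, 4 for the adult interaction, 9 for the age difference in the MV response and 3 for that in the LPS+MV response; no call reported above was lost. The labels do not say whether the replicate numbers pair the arrays, and the main fit left the numbers out. Arrays of 1 number correlated by 0.05 on average (99 pairs, -0.23 to 0.42), and arrays of different numbers by -0.02 (294 pairs). Of 30 arrays, 11 correlated best with their own number. These values do not settle whether the numbers mark pairs. With only the compared groups fitted, 2 passed for juvenile LPS+MV against LPS, 1 for adult LPS+MV against LPS and 1 for the age difference with MV. The mean over probe sets gave 1 for juvenile LPS+MV against control, 2 for adult LPS+MV against MV and 3 for the age difference with MV. No filter gave 1 for the adult interaction, and quantile normalization 2 for the age difference with LPS+MV. Without the 4 arrays that stand apart, 1 passed for adult LPS+MV against LPS, 2 for adult LPS+MV against MV, 1 for the age difference with LPS and 5 for that with LPS+MV.

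Leaving out 1 array gave 15 to 17 genes for adult MV against control, 15 to 17 for adult LPS+MV, 2 to 9 for juvenile LPS, 0 to 1 for juvenile MV, 0 to 1 for juvenile LPS+MV, 0 to 1 for juvenile LPS+MV against LPS, 0 to 1 for adult LPS+MV against LPS, 0 to 2 for adult LPS+MV against MV, 0 to 4 for the adult interaction, 0 to 9 for the age difference with MV, 0 to 1 with LPS and 0 to 4 with LPS+MV. Of the 132 calls of single collagen genes 0 changed sign. Calls lost numbered 31 with the Xist term, 13 with only the compared groups, 8 with quantile normalization, 7 with no filter, 7 with the mean over probe sets, 1 with a pseudocount of 1, 9 without the 4 arrays and 108 of 1071 when 1 array was left out. Quantile normalization moved the share of lower genes among all genes called to 58.5%, from 77.2%, for adult MV against control, to 46.8% from 64.3% for adult against juvenile MV, to 53.7% from 78.8% for the age difference with MV, to 57.2% from 30.8% for adult LPS+MV against MV and to 53.2% from 23.2% for the adult interaction. The causes were not tested. The intensity of 12 genes under 50 limits what can be seen in them.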
